A study of Mus musculus with 4 samples.

Results

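Conventional NK cells of the mouse mammary gland were taken as 2315 of 42781 cells, 1353 of 21604 in the library here called A and 962 of 21177 in library B. They were chosen by their own transcripts, counted as unique molecular identifiers (UMIs, 1 per captured RNA molecule). A member had no UMI of the T cell receptor complex genes Cd3e, Cd3d and Cd3g, at least 1 of Ncr1, Klrb1c and Klre1, and at least 2 summed over Eomes, Klra8, Klra4 and Prf1. It also had no UMI of Itga1, Itgae and Gzmc, which mark tissue-resident innate lymphocytes, and none of the B cell genes Cd79a and Ms4a1. Of the cells of library A, 12874 had no Cd3 UMI, 3581 of these had an NK identity UMI and 1623 reached the sum of 2, and the last steps removed the cells with residency or B cell genes. In library B the steps left 11265, 2774 and 1346 cells. Prf1 was found in 1112 and 832 of the members, Ncr1 in 741 and 719, Eomes in 483 and 599, Klra4 in 648 and 457, and Klra8 in 606 and 507. Levels of these genes are descriptions and are not tested.

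Natural killer (NK) cells are innate lymphocytes that kill infected or transformed cells without a rearranged antigen receptor. Activating receptors such as NKp46 (Ncr1) and NKG2D (Klrk1) are weighed against inhibitory receptors for MHC class I, many of them of the Ly49 family (Klra genes), and killing is done by perforin (Prf1) and granzymes. Conventional NK cells depend on the transcription factor EOMES and circulate, while group 1 innate lymphoid cells (ILC1) share NKp46 and NK1.1 (Klrb1c) and stay in tissues. As they mature, mouse NK cells lose CD27 and TCF7 and gain CD11b (Itgam), KLRG1 and S1PR5.

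The study profiled CD45+ (leukocyte) cells of the gland at stages of reproduction, pooled in 2 droplet libraries with 3' chemistry. Antibody hash tags mark the sample of each cell, and the deposited sheets name the tags. The libraries bear the names DR_MG_2021 and DR_MG_2022 and are called A and B, and a sample is called by its sheet name and library, as in Gestation A. Library A has Nulliparous (never pregnant), Gestation (pregnant), Lactation and tag HT2. Library B has Gestation, Lactation, Involution (the gland's return after weaning), Regression, Balb/c (an inbred strain), GF (germ-free) and tag HT2. The sheets give HT2 the name Germ-free, but the title of library A lists involution and no germ-free sample, so HT2 carries only its tag name here and enters no comparison of stages. Nulliparous of library B had 1 tag count and was not used. For every group the genotype, age and number of animals are not given in these sources, nor is the strain outside Balb/c, nor the stage at which GF and Balb/c glands were taken. No group had an added agent in the labels. P-values below thus measure only the spread between these hash-defined samples, which may be technical.

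Depth differed between the libraries, from 56300251 UMIs in A (median 1599 per cell over 740 genes) to 90642638 in B (3049 over 1439). They shared 139 cell barcodes. NK cells were shallower, with medians of 1231 and 2767.5 UMIs. After removal of cells with no tag, with several tags or with a doublet call, 1079 of 15287 analysed cells in A and 663 of 14612 in B were NK cells, from 21 (Lactation B) to 406 (HT2 A) per sample. Levels are given as UMIs per 10000 UMIs of the class in a sample, so that a level compares one gene between samples. The noncoding entry CT010467.1 alone took 1686 to 1887 per 10000 in NK cells of library A and 541 to 645 in library B, so levels of single samples are set side by side within a library.

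The background of free RNA was read in B cells. B-gated cells (at least 2 UMIs of Cd79a and Ms4a1, no Cd3 UMI) should lack NK genes, and their median depths were 930 UMIs in library A and 2037.5 in library B, beside 1187 and 2783 in the analysed NK cells. The rule chose NK cells on UMIs of Ncr1, Eomes and Prf1, so their shares are descriptions. Ncr1 had a UMI in 54.1% and 74.2% of NK cells and in 1.10% and 1.22% of B-gated cells. Eomes had one in 38.1% and 65.3% of NK cells and Prf1 in 80.8% and 86.4%, beside 0.73% to 1.32% of B-gated cells for either gene. With each cell thinned to 800 UMIs, Ncr1 had a UMI in 38.5% of NK cells in A and 34.1% in B, and Eomes in 27.8% and 29.5%, with 119 and 8 shallower NK cells left out. Gzma, which the rule did not use, had a UMI in 96.1% and 92.6% of NK cells, and in no more than 11.3% of B-gated cells. Trac, the T cell receptor alpha constant gene, was at 0.00 to 0.20 per 10000 over the 11 samples.

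Other transcripts of T cells were not all absent. The T cell list summed to 4.42 to 5.55 per 10000 in NK cells of library A and 5.34 to 7.62 in library B, against 33.6 to 38.1 and 31.4 to 37.4 in CD8-gated cells (a Cd3 UMI and a Cd8b1 UMI) and 0.377 to 0.431 and 0.474 to 1.09 in B-gated cells. Trbc1, a T cell receptor beta constant gene, lay between 2.41 and 4.11 per 10000. Trdc, the delta constant gene, lay between 0.39 and 1.93. B and plasma cell genes summed to 23.8 to 153 per 10000 in library A and 6.13 to 8.97 in library B. In Lactation A, 4215 of 4657 Igkc UMIs of the NK cells were in 1 cell. Myeloid genes summed to 13.3 to 29.3 and 8.42 to 46.1, with the highest value in Involution B.

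At the edge of the rule, 320 cells of library A and 125 of library B had a sum of exactly 1 over Eomes, Klra8, Klra4 and Prf1 and stayed outside, and 324 and 95 had exactly 2 and were inside. Gzma, granzyme A, stood at 68.5 per 10000 just outside and 77.2 just inside in library A. In library B it stood at 21.1 just outside and 37.0 just inside. Cells with a sum of 0 had 50.7 and 4.49, and cells with a sum of at least 4 had 83.0 and 62.7.

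NK cells were most frequent under tag HT2 in both libraries. They made up 14.4% of 2826 analysed HT2 cells in library A (exact Clopper-Pearson 95% interval 13.1% to 15.7%) and 14.4% of 1795 in library B (12.8% to 16.1%). In the rest of library A the share was 7.40% in Gestation, 6.94% in Lactation and 3.18% in Nulliparous, and the intervals of Gestation and Lactation overlapped. In the rest of library B it lay between 2.68% in Lactation and 3.79% in Involution, and all of these intervals overlapped. With B-gated cells left out of the denominator, an alternative chosen after the data were seen, Regression was at 5.23% (4.12% to 6.53%) and Gestation at 3.33% (2.69% to 4.08%), and these intervals did not overlap. With all cells counted, Gestation stood at 2.70%, Regression at 3.05%, GF at 3.49% and Balb/c at 3.19%. Intervals and floors here cover counting error only.

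HT2 stayed first at equal depth. Thinned to 800 UMIs, with 1825 and 227 shallower cells left out, the HT2 samples had 10.2% and 9.65% NK cells and the other samples 1.73% to 5.55%. HT2 ranked first in its library under each of the 9 ways of counting in which the share of analysed cells was computed, at 1.81 to 2.06 times the next sample in library A and 2.86 to 3.94 times in library B. Lactation averaged 4.81% and Gestation 5.05% over the 2 libraries, and an exact two-sided permutation test gave p = 0.667, where 2 samples against 2 cannot go below 0.333. This and the later permutation tests shuffled samples across libraries and did not pair them by library. The gap between libraries thus enters their p-values. The share moves with the other cells of a sample: B-gated cells made up 3.14% of Balb/c and 41.6% of Regression.

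**Figure D1:**
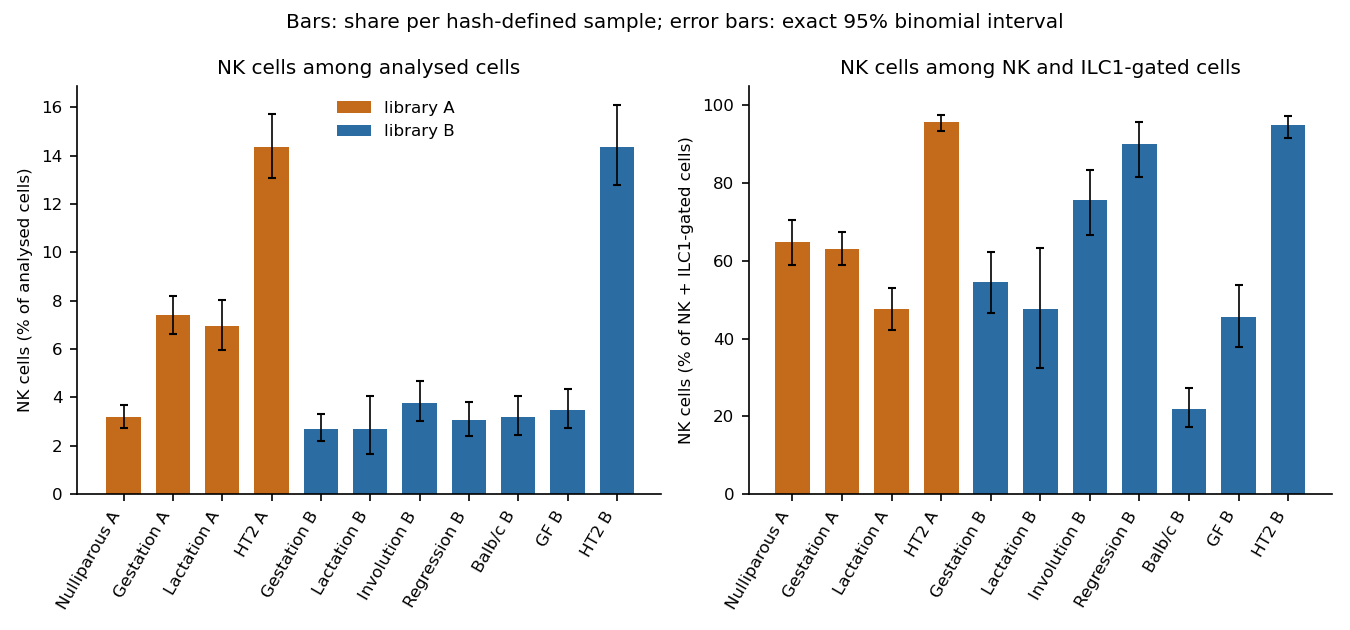
NK cells per hash-defined sample as a percentage of all analysed cells (left) and of NK and ILC1-gated cells together (right), with exact 95% binomial intervals. HT2 is at 14.4% in both libraries in the left panel, and Balb/c is lowest, at 22.0%, in the right one.

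Among NK and ILC1-gated cells alone, the balance differed widely between samples. The ILC1 gate took cells with no Cd3 UMI, an NK identity UMI and at least 2 UMIs of Itga1, Itgae and Gzmc. NK cells were 95.8% of both classes in HT2 A, 94.9% in HT2 B and 90.1% in Regression, and 75.7% in Involution. They were 64.9%, 63.2% and 47.6% in Nulliparous, Gestation and Lactation of library A and 54.5% and 47.7% in Gestation and Lactation of library B. GF had 45.7%, and Balb/c, with 63 NK and 224 ILC1-gated cells, had 22.0% (17.3% to 27.2%). Lactation was below Gestation in both libraries, by a mean of 11.2 percentage points (exact two-sided permutation p = 0.333, the smallest possible). Thinned to 800 UMIs, Lactation was at 62.1% against 67.6% in library A and at 70.4% against 60.6% in library B, so the order in library B turned. Balb/c stayed lowest when thinned, at 30.1%, with the others at 55.2% to 98.3%.

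Eomes, Prf1 and Ncr1 were found in the NK cells of every sample. Over the 11 samples, Eomes, the factor that sets conventional NK cells apart, ran from 3.08 (Lactation A) through a median of 4.15 to 6.35 per 10000 (Regression). This range spans both libraries, so its ends are not read as a difference between those samples. Prf1, perforin, ran from 11.50 to 14.93 per 10000 in library A and from 8.51 to 11.32 in library B. Ncr1 ran from 4.69 to 6.34 in library A. In library B it ran from 3.85 (Regression) to 7.67 (Lactation) in 6 samples and stood at 12.04 in Balb/c.

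Balb/c NK cells nearly lacked some Ly49 transcripts that every other sample had. BALB/c mice are known to carry another Ly49 gene cluster than C57BL/6 mice, without the receptor Ly49H. Klra8, which encodes Ly49H, had 5 UMIs in Balb/c NK cells, all in 1 cell of 63, or 0.28 per 10000 (Poisson 95% interval 0.09 to 0.64). In the other samples of library B it ran from 5.46 through a median of 7.02 to 9.20, and in library A from 3.55 to 7.88. Klra4 (Ly49D) had 18 Balb/c UMIs in 8 cells, 0.99 per 10000, against 6.20 to 10.04 in the rest of library B. Klra9 (Ly49I) stood at 0.33 against 2.22 to 4.48, and Klra7 (Ly49G) at 0.99 against 3.40 to 4.32. Klra3 (Ly49C) had no such gap, at 2.49 against 0.84 to 2.08. Reads of these near-identical genes can be split between them or lost in counting, so each value is uncertain, and Balb/c is 1 sample with no test.

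Over all cells of the samples, whether NK cells or not, Klra8 had a UMI in 22 of 1972 Balb/c cells. It had one in 107 of 3328 cells in Gestation B, 79 of 2392 in Regression, 89 of 2219 in Involution, 33 of 783 in Lactation B, 104 of 2123 in GF and 232 of 1795 in HT2 B. Klra7 had a UMI in 162 of 1972 Balb/c cells, a larger share than 125 of 2392 in Regression and 144 of 2219 in Involution. It was a smaller share than 326 of 3328 in Gestation B, 111 of 783 in Lactation B, 289 of 2123 in GF and 237 of 1795 in HT2 B. Klrb1c, the NK1.1 gene, was lower but present in Balb/c NK cells, with 58 UMIs in 35 cells, or 3.20 per 10000 against 7.23 to 10.49 in the rest of library B. The adaptor genes Fcer1g (12.98 against 18.71 to 22.03) and Tyrobp (16.13 against 21.76 to 25.45) and the NKG2D gene Klrk1 (4.64 against 7.03 to 9.12) were below the other samples of library B. Klrd1 (CD94) was above them, at 10.61 against 7.15 to 8.03, as were the chemokine genes Ccl3 (9.56 against 3.09 to 6.87) and Ccl4 (24.86 against 11.50 to 20.80). Since the rule counts Klra8 and Klra4, it could miss Balb/c cells. With a sum of at least 1 in place of 2, the Balb/c share was 4.26% in place of 3.19%, next to HT2 B (15.7%) in library B, where the others were at 2.81% to 4.19%.

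**Figure D2:**
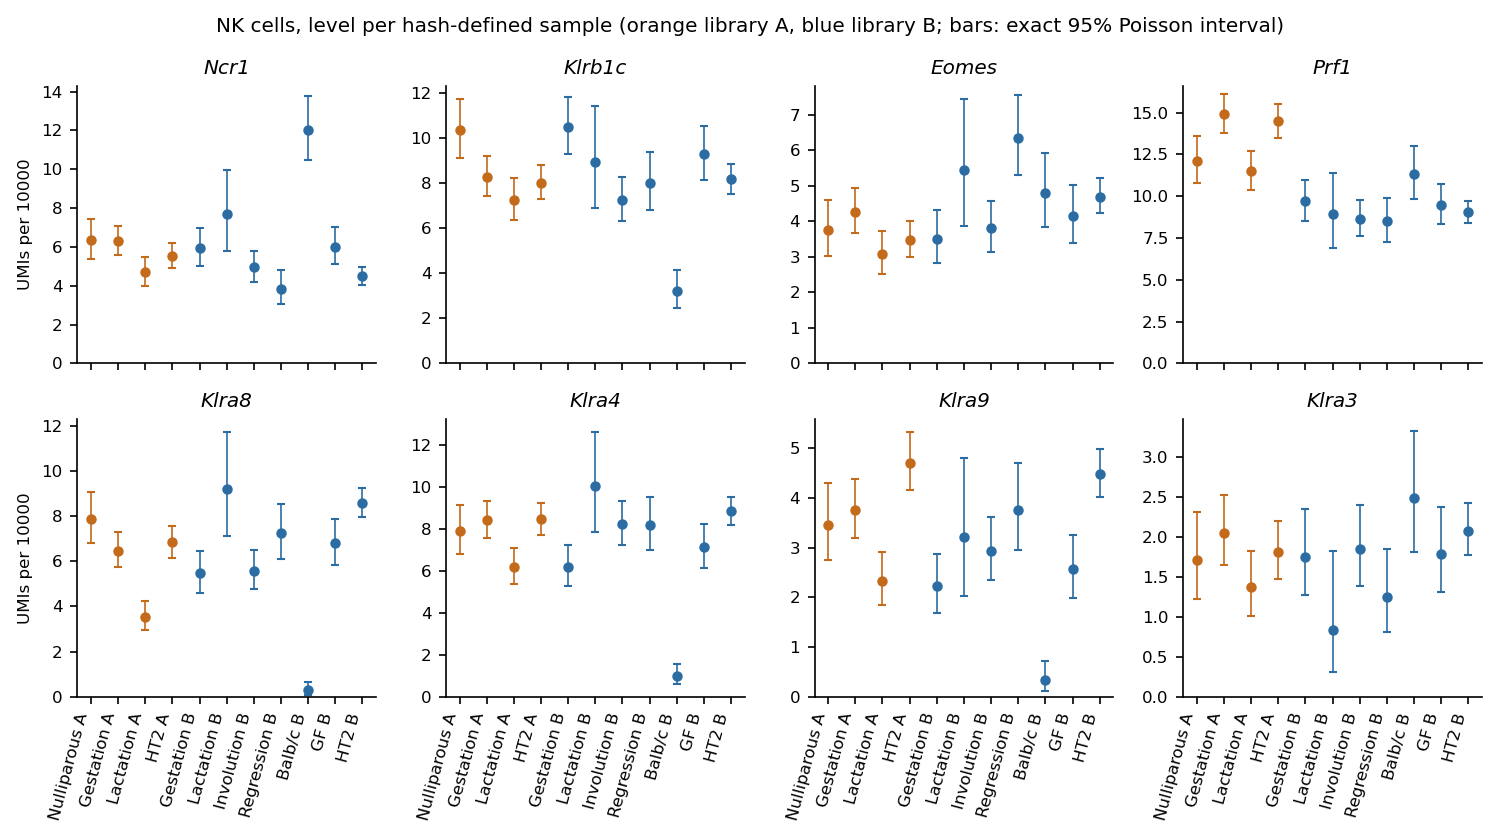
Levels of 8 genes in NK cells of each hash-defined sample, in UMIs per 10000 with Poisson 95% intervals (library A orange, library B blue). Balb/c stands apart with Klra8 at 0.28, Klra4 at 0.99 and Klra9 at 0.33, while its Ncr1 is highest at 12.04 and its Klra3, at 2.49, is also highest.

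Set against ILC1-gated cells of the same samples, NK cells had more transcripts for circulation, maturation and Ly49 receptors and fewer for tissue residency. UMI sums of NK and ILC1-gated cells were compared with edgeR's quasi-likelihood test over the 8 samples with at least 20 cells of each class (HT2 of both libraries and Regression had fewer ILC1-gated cells), with the sample as a block. A gene was called at a Benjamini-Hochberg adjusted p under 0.05. Of 4103 genes tested, 376 (9.16%) were higher and 325 (7.92%) lower in NK cells, 17.1% in all. Fold changes are log2, with the standard error (SE), and genes of either gate were left out of the calls. NK cells were shallower than ILC1-gated cells in 8 of 8 samples, at 1313 to 3539 against 1469 to 5922 mean UMIs per cell.

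Genes of circulation and homing were higher for 7 of 9 tested (median log2 change 0.89, against 0.00 over all genes). Itga4, the integrin chain CD49d, ran from 4.70 through a median of 5.89 to 8.69 per 10000 in NK cells and from 0.58 through 1.22 to 3.91 in ILC1-gated cells. The ranges did not overlap, and the change was 2.00 (SE 0.24, edgeR adjusted p = 2.75e-06). Among other integrins, Itgal (1.07) and Itgb2 (0.89) were higher too, as was the chemokine receptor gene Ccr2 (1.83). Outside the list, Itga2, which encodes the NK integrin CD49b, ran from 1.28 to 2.26 against 0.29 to 0.47 (log2 change 2.28, SE 0.14). In the list 1 gene was lower, the gut-homing integrin gene Itgb7 (-0.79).

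The gates use the residency genes Itga1, Itgae and Gzmc in opposite ways, so the residency contrast is tied to the choice of cells. Of the residency and ILC1 list, 8 of 9 tested were lower and none was higher (median -1.86). Cxcr6, a chemokine receptor that holds lymphocytes in tissue, was at 0.00 to 0.17 per 10000 in NK cells and 1.44 to 3.79 in ILC1-gated cells, with no overlap (log2 change -5.08, SE 0.22, edgeR adjusted p = 1.63e-12). Inpp4b (-4.05), Cd200r1 (-4.54), Rgs1 (-2.27), Tmem176b (-1.86), Tmem176a (-1.48), Rgs2 (-0.75) and Il21r (-1.65) were also lower. Outside the list, Tnfsf10, the death ligand TRAIL, was at 0.08 to 0.50 against 1.88 to 3.87 (-3.62, SE 0.19), and Cd7, a surface protein of T and NK cells, at 0.99 to 3.31 against 12.3 to 24.8 (-3.39). Cdh1, the adhesion gene E-cadherin, was at 0.00 to 0.14 against 0.76 to 2.46 (-4.90, SE 0.26).

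Maturation genes were higher for 5 of 7 tested and lower for none (median 2.33). Itgam, CD11b, ran from 1.05 through 1.52 to 2.23 per 10000 in NK cells and from 0.11 through 0.26 to 0.76 in ILC1-gated cells, without overlap (2.61, SE 0.20, edgeR adjusted p = 3.87e-09). Cma1, a chymase gene, was higher by 4.29 and Klrg1, an inhibitory receptor of mature NK cells, by 2.44. Transcription factors were higher for 7 of 12 and lower for 2. Zeb2, which drives late NK maturation, ran from 1.95 to 3.87 against 0.08 to 1.63 (2.90, SE 0.29). Klf2 (2.47) and Irf8 (1.88) were higher, each in 7 of 8 samples, as were Prdm1 (1.79), Tcf7 (1.12), Tbx21 (0.57) and Stat4 (0.53). Tcf7 is also 1 of the genes that NK cells lose as they mature. Tox (-1.14) and Runx3 (-0.80) were lower.

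The lists of inhibitory and activating receptors split by sign, though each counts a receptor of the other kind. Inhibitory receptors were higher for 6 of 9 tested and lower for 1 (median 1.71), among them Klra3 (2.31), Klra7 (2.07), Klra1 (1.97) and Klra9 (1.71). The rises of this list also count Klri2 (1.60), an activating receptor. Cd96, a checkpoint receptor, was the gene that was lower (-1.35). The NK rule counts UMIs of Klra8 and Klra4 and the ILC1 gate does not, and Ly49 genes can share reads. The Ly49 contrast is thus tied in part to the choice of cells. Activating receptors and adaptors were lower for 6 of 13 and higher for 1 (median -0.36). The gene that was higher was Klrk1, by 0.72, while Cd226 (-1.71), Cd160 (-1.39) and Cd244a (-0.79) were lower. The falls of this list also count Klrb1b (-1.01), an inhibitory receptor. Cytokine receptors were higher for 4 of 9 and lower for 2. Il18rap, a chain of the IL-18 receptor, ran from 2.78 to 6.13 per 10000 against 0.21 to 1.06 (2.75, SE 0.18), and Il18r1 was higher by 2.11. The TGF-beta receptor genes Tgfbr1 (-0.90) and Tgfbr2 (-0.78) were lower.

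The killing genes did not move as one. Of 12 tested, granule and death ligand genes together, 3 were higher and 4 lower (median -0.07). The lower ones were Gzmb, Tnfsf10 (-3.62), Srgn (-0.85) and Ctsw (-0.75). Serpinb9, an inhibitor of granzyme B, was higher by 1.92 and Nkg7, a granule protein gene, by 0.59. Gzmb, granzyme B, ran from 2.65 through 6.22 to 9.44 per 10000 in NK cells and from 9.60 through 11.99 to 31.1 in ILC1-gated cells, without overlap (-1.20, SE 0.15, edgeR adjusted p = 3.38e-06). Gzma had a change of -0.25 and was not called. The NK rule counts Prf1 and the ILC1 gate counts Gzmc, so the contrast of killing genes is tied in part to the choice of cells. Among secreted factors 3 of 5 were higher and 1 lower. Ccl3 (1.79), Ccl4 (1.18) and Ifng (1.59, SE 0.22) were higher, though the Ifng ranges overlapped (0.55 to 1.95 against 0.12 to 0.79). Xcl1, the lymphotactin gene, was lower, at 2.67 to 12.81 against 10.55 to 37.57 (-1.53, SE 0.14).

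Cell cycle genes gave no call among 5 tested, with 2 at an unadjusted p under 0.05 by edgeR's test, and interferon-stimulated genes none among 4, with 1. Immediate early genes, which respond to handling and to stimulation, were higher for 5 of 10 and lower for 1, and their part in the other results was not tested. The 10 largest rises and 10 largest falls of the rule for named genes also held genes outside these lists. Lgals1, which encodes galectin-1, ran from 11.15 through 14.56 to 16.90 per 10000 in NK cells and from 1.08 through 3.20 to 4.50 in ILC1-gated cells (2.33, SE 0.19). Adamts14, a procollagen protease gene, was at 1.16 to 2.83 against 0.00 to 0.43 (3.93, SE 0.24). Rasa3, a brake on Ras signalling, was higher by 2.23 and Lpin1, an enzyme of lipid synthesis, by 2.17. Klra13-ps, a Ly49 pseudogene that can share reads with its relatives, was higher by 2.65. Trgc4, a T cell receptor gamma constant gene, was at 0.00 to 0.27 against 1.44 to 2.65 (-4.15, SE 0.25). Jaml (-2.86), Cited4 (-3.20) and 2900026A02Rik (-3.92) were the other falls. All 20 genes named by size kept their call under every alternative in which they had a value.

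Of the lists of other lineages, 5 genes were called between these classes, where 17.1% of all genes tested were called. The lists had 3 T cell, 3 B and plasma cell, 4 myeloid, 1 ILC2 and 4 epithelium, milk and blood genes tested. Trdc (1.38, in 7 of 8 samples), the myeloid lysozyme gene Lyz2 (1.42, in 5 of 8) and the immunoglobulin gene Igkc (0.41, in 6 of 8) were higher in NK cells. For Igkc, 64.0% of the UMIs of a class were in 1 cell, and the change was -0.077 with the gate without Klra8 and Klra4 and -0.063 with a sum of at least 3. Trbc2 (-0.86) and Ighm (-0.90) were lower, while ILC2 genes and genes of epithelium, milk and blood gave no call. The part of such transcripts in the other calls was not tested.

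Against CD8-gated T cells, over all 11 samples, NK cells had more receptor, adaptor and granule transcripts and fewer T lineage and ribosomal ones. Of 4519 genes, 779 (17.2%) were higher and 785 (17.4%) lower, 34.6% in all. Of 94 ribosomal protein genes, 89 were lower. NK cells were shallower than CD8-gated cells in 9 of 11 samples. Both gates use Cd3 UMIs in opposite ways, so the T lineage list is tied to the choice of cells. It was lower for 6 of 7 tested, with Cd6 (-6.22), Cd5 (-5.81) and Trac (-5.44) among them. Trdc was the gene that was higher (1.64).

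Activating receptors and adaptors were higher for 8 of 12 and lower for 2, and inhibitory receptors higher for 8 of 9 and lower for 1. Tyrobp, the DAP12 adaptor, ran from 16.13 through 21.89 to 25.45 per 10000 in NK cells and from 1.14 through 1.75 to 4.36 in CD8-gated cells, without overlap (3.25). Klri2, an activating lectin-like receptor gene that is counted in the inhibitory list, had the largest rise of the genes named by size. Its change was 5.73 (SE 0.21, edgeR adjusted p = 1.89e-16). Klra9 was higher by 4.75 and Klrk1 by 2.97. Here too the NK rule counts Klra8 and Klra4 and the CD8 gate does not. The Ly49 contrast is thus tied in part to the choice of cells. Styk1, a kinase-like gene, was at 0.70 to 2.60 against 0.00 to 0.14 (5.47, SE 0.23). Klrb1f (4.19) and Klrb1a (3.87), of the NK1.1 family, and Klrc2 (2.84), an activating partner of CD94, were higher. The activating genes that were lower were Slamf6 (-2.26) and Cd226 (-1.05). For Klra9 the ranges met only at Balb/c NK cells (0.33), against a CD8-gated maximum of 0.34.

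Killing genes were higher for 8 of 11 and lower for none. The NK rule counts the killing gene Prf1 and the CD8 gate does not, so this contrast too is tied in part to the choice of cells. As given above, Gzma was higher in cells with a sum of at least 4 in that rule than in cells with 0. Gzma ran from 41.7 through 69.3 to 90.4 per 10000 in NK cells and from 1.61 through 8.59 to 49.0 in CD8-gated cells, so the ranges overlapped (3.10, SE 0.27, edgeR adjusted p = 9.97e-10). Serpinb9 was at 2.65 to 3.92 against 0.17 to 0.58 (3.17), Gzmb was higher by 1.56 and Fasl by 1.16. Secreted factors were higher for 5 of 6 and lower for 1: Ccl3 (3.35), Ccl4 (2.55), Xcl1 (1.56), Ifng (1.12) and Ccl5 (0.87) were higher and Tnf (-1.65) lower. Ccl5 was higher in 9 of 11 samples, at 66.4 to 127 against 14.3 to 90.7 per 10000. Cytokine receptors were higher for 5 of 7 and lower for 1. Il2rb, the receptor chain for IL-2 and IL-15, ran from 10.45 to 15.61 against 1.92 to 4.62 (1.82).

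Homing genes split, with 7 of 13 higher and 5 lower. Ccr7, the receptor that guides cells into lymph nodes, was lower (log2 change -5.88), as was S1pr1, the receptor for egress (-3.42), while Ccr2 (2.42) was higher. Maturation genes were higher for 4 of 8, led by Cma1 (4.17) and Itgam (3.49), and lower for 4, led by Il7r, the IL-7 receptor gene (-4.83). Among transcription factors 8 of 13 were higher and 4 lower. Irf8 (3.40), Zeb2 (2.35), Tbx21 (1.97) and Id2 (1.34) were higher, and Bcl11b (-4.84) and Tcf7 (-1.87) lower. Of the residency list 4 of 8 were lower, led by Cxcr6 (-4.77) and Inpp4b (-3.66), and Rgs2 (0.79) was higher. Immediate early genes were higher for 7 of 10 and lower for none. Interferon-stimulated genes were lower for 4 of 4, led by Ifi27l2a (-2.74), and cell cycle genes for 3 of 5, with Top2a at -0.69 and Mki67 at -0.65. All 20 genes named by size kept their call under each of 22 alternatives.

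**Figure D3:**
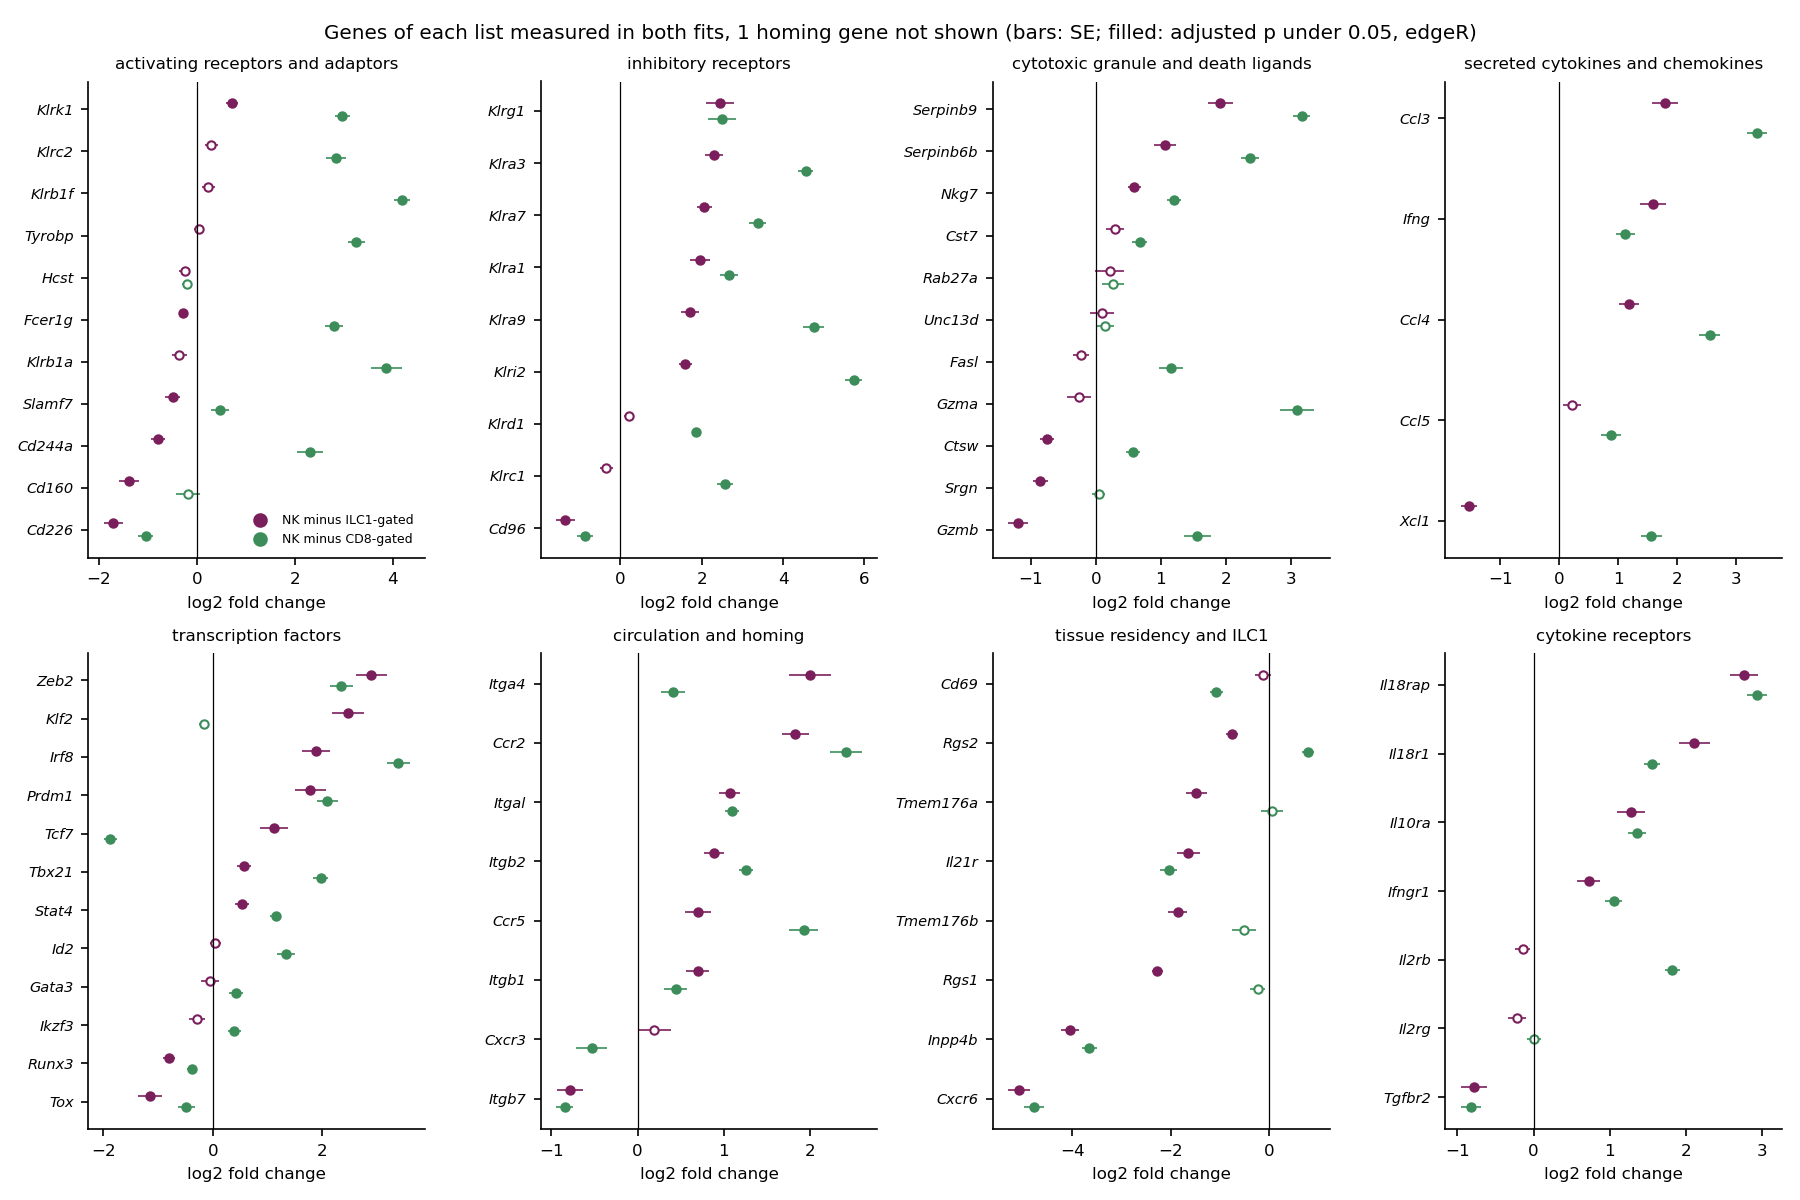
Log2 fold changes of listed genes in NK cells against ILC1-gated cells (purple, 8 samples) and CD8-gated cells (green, 11 samples), by gene list. Bars are standard errors and filled points have an edgeR adjusted p under 0.05; Gzmb is at -1.20 against ILC1-gated cells and 1.56 against CD8-gated cells.

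Within the NK cells, early and late stages of maturation were separated by their transcripts. Early cells had a UMI of Cd27, Tcf7 or Emb and none of Klrg1, S1pr5, Cma1 and Itgam, and late cells the reverse. NK cells with UMIs of both sets or of neither were left out. In Gestation A, 151 of 326 NK cells had neither and 11 had both. In Gestation B, 13 of 90 had neither and 22 had both. Late cells were 37.0% of early and late cells together in Regression (17 late and 29 early, interval 23.2% to 52.5%), and 51.0% to 66.7% in the other samples of library B. In library A they were 52.9% in Nulliparous, 67.8% in Lactation, 70.4% in HT2 and 70.7% in Gestation. At 800 UMIs per cell Regression had 18 late and 18 early cells and GF was lowest in library B, at 35.7% (18.6% to 55.9%), so the place of Regression was not kept. Nulliparous stayed lowest in library A, at 55.2%, against 68.4% to 77.6%. Lactation averaged 67.2% and Gestation 65.4% (exact two-sided permutation p = 1.0, smallest possible 0.333). Lactation B, at 66.7%, had 8 late and 4 early cells (interval 34.9% to 90.1%). At 800 UMIs per cell Lactation was at 77.6% against 69.0% in Gestation in library A. In library B it was at 42.9%, with 3 late and 4 early cells, against 51.4%, so the libraries differed in direction.

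In 8 samples with at least 20 cells of each (327 early and 540 late), edgeR's test called 66 of 1295 genes (5.1%) higher and 103 (7.95%) lower in late cells, 13.1% in all. The genes that split the cells and those of the NK rule were left out of the calls. Killing genes were higher for 7 of 9 and lower for none (median log2 change 0.70, against -0.01 over all genes). Gzma ran from 92.3 through 109 to 128 per 10000 in late cells and from 19.7 through 39.4 to 49.0 in early cells, without overlap (1.59, SE 0.09, edgeR adjusted p = 2.54e-10). Gzmb ran from 6.99 to 14.3 against 1.65 to 5.35, also without overlap (1.69, SE 0.13). Serpinb9 (0.95), Fasl (0.80), the Fas ligand gene, and Nkg7 (0.37) were higher. Ly6c2 (1.29) and Spn (0.63), the 2 maturation genes tested that had not split the cells, were higher.

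Transcription factors were higher for 4 of 8 and lower for none. Zeb2 ran from 4.17 through 5.15 to 6.09 per 10000 in late cells and from 0.72 through 1.51 to 2.28 in early cells (1.74, SE 0.17, edgeR adjusted p = 5.5e-07), and the ranges lay apart. Irf8, at 7.83 to 15.10 against 2.11 to 5.36 (1.53, SE 0.14), Klf2 (1.29) and Tbx21 (1.03), which encodes T-bet, were the others. Secreted factors moved both ways. Ccl5 (1.11), Ccl3 (0.78) and Ccl4 (0.71) were higher, and Xcl1 was lower in 7 of 8 samples, at 0.60 to 10.9 against 2.30 to 19.3 with overlap (-1.36, SE 0.21). Receptors moved less: the inhibitory Klra3 (1.02) and Klra9 (0.83) were the 2 of 7 higher, and the activating Cd244a (0.71) and Fcer1g (0.27) the 2 of 9. The integrin genes Itga4 (0.83) and Itgb2 (0.82) were higher.

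Thy1, a surface glycoprotein, had the largest fall of the genes named, at 0.20 to 2.27 against 2.53 to 5.80 per 10000 without overlap (-1.65, SE 0.16). Ctla2a, a protease inhibitor gene, was at 1.99 to 4.09 against 5.86 to 8.34, also without overlap (-1.21). Ccr2 (-1.14) and Ly6e (-1.01) were lower. Fosb (-1.17) and Fos (-0.94) were the 2 of 9 immediate early genes lower in late cells. Cytokine receptors gave no call among 6 tested by edgeR, with 2 at an unadjusted p under 0.05, residency genes none of 2, with 2, and cell cycle genes none of 2, with 0. All 55 ribosomal protein genes called, of 82 tested, were lower in late cells, and late cells were shallower in 7 of 8 samples. Of the lists of other lineages, the casein gene Csn2, a milk transcript, was higher in late cells in 8 of 8 samples, at 2.87 to 25.8 against 1.53 to 4.54 per 10000 with overlap (0.73, edgeR adjusted p = 0.0258), and Trbc1 was lower (-0.55). The part of such transcripts in the other calls was not tested. Without the HT2 samples, an alternative chosen after the data were seen, 85 genes were called in place of 169. Of the 20 genes named for their size, 14 kept their call under all 19 alternatives. The 6 that did not were Klra3, Gm10076, Epsti1, Gapdh, Trbc1 and Xist.

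**Figure D4:**
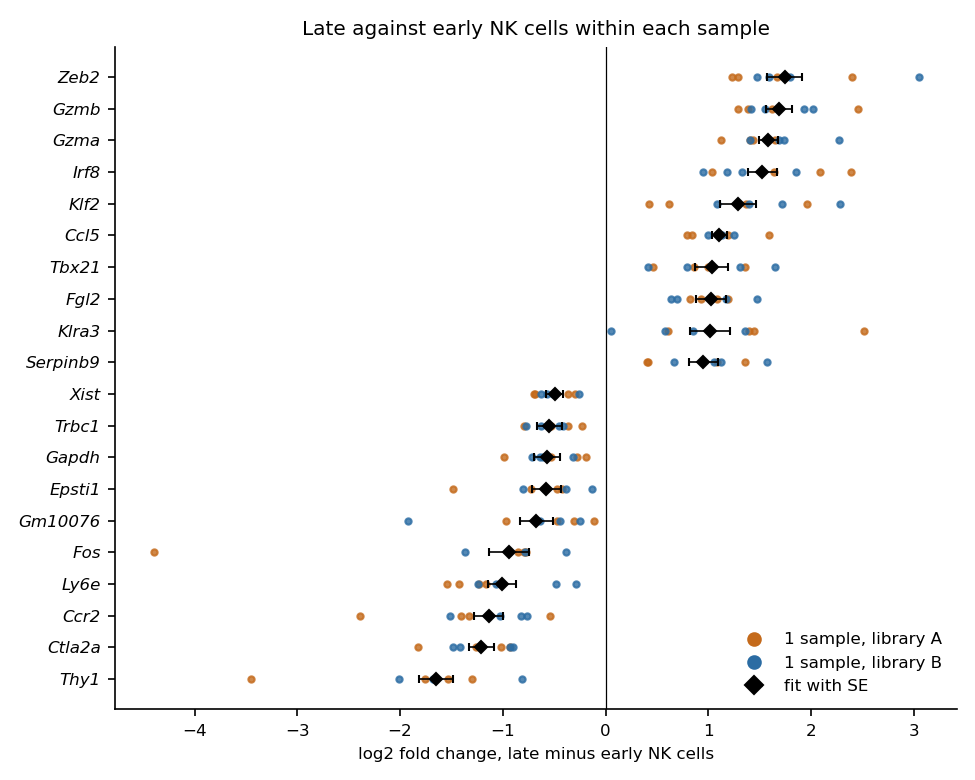
Log2 fold changes of the 20 genes named by size in late against early NK cells. The naming rule left out some larger calls, such as those without the same sign in every sample. There is 1 dot per sample (8 samples), and the edgeR estimate with its standard error is a diamond. Zeb2 (1.74), Gzmb (1.69) and Gzma (1.59) lead the rises and Thy1 (-1.65) the falls.

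Between Gestation and Lactation, the stages present under undisputed names in both libraries, cell cycle genes were higher in Lactation NK cells and the functional genes gave no call. Mki67, a marker of dividing cells, was at 0.51 per 10000 in Gestation A and 2.57 in Lactation A, and at 0.27 and 1.95 in library B. Top2a, the topoisomerase of dividing cells, was at 0.26 and 2.30, and at 0.16 and 1.95. Lactation was above Gestation in each library for either gene. edgeR's test with the library as a block gave a log2 change of 2.48 for Mki67 (SE 0.34, edgeR adjusted p = 0.000856) and 3.30 for Top2a (SE 0.38, edgeR adjusted p = 0.000169), and the change had the same sign in 2 of 2 libraries. With the top cell of each gene left out, the Mki67 change was 2.38 with an edgeR adjusted p of 0.332, and Top2a was no longer tested. DESeq2 gave an adjusted p of 0.345 for Mki67 and 0.0381 for Top2a.

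Of 4461 genes, 25 (0.56%) were higher and 2 (0.0448%) lower in Lactation, 0.605% in all, and with upper-quartile scaling the split was 8 higher and 2 lower. Of the cell cycle list 4 of 5 tested genes were higher, with a median log2 change of 2.48, against 0.02 over all genes. Stmn1, which destabilises microtubules, had 38 and 147 UMIs in Gestation and Lactation of library A and 16 and 26 in library B (2.40, SE 0.28, edgeR adjusted p = 0.000169). Tubb5 (1.82) and Tuba1b (1.74), both tubulin genes, Hmgb2 (1.23), a chromatin protein gene, and Dut (1.87), which supplies nucleotides, were higher too. Ifi27l2a, 1 of 4 interferon-stimulated genes tested, was higher by 1.64, and its near copy Ifi27l2b can share its reads.

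These calls rest on few cells in library B. Lactation B had 21 NK cells, all 14 of its Top2a UMIs were in 1 cell, and 12 of its 14 Mki67 UMIs were in 1 cell. In Lactation A, 28 of 168 NK cells (16.7%) had a Mki67 or Top2a UMI, against 17 of 326 (5.21%) in Gestation A. In library B it was 2 of 21 (9.52%) against 6 of 90 (6.67%). Thinned to 800 UMIs, the shares were 13.8% against 3.46% in library A, and 4.76% against 0 of 88 in library B. In ILC1-gated cells of library A the same share was 28.1% against 4.21% (18.5% against 2.72% thinned), and in all analysed cells 16.7% against 5.83% (10.3% against 4.07% thinned), so Lactation was above Gestation there too. In library B it was 17.4% against 16.0% in ILC1-gated cells (3 of 23 against 6 of 75 cells thinned) and 16.5% against 12.7% in all analysed cells (7.47% against 5.91% thinned). In B-gated cells it was 20.5% against 2.78% in library A (3.03% against 2.05% thinned) and 6.06% against 4.47% in library B. With the top cell of each gene left out, edgeR called 0 genes, with 201 at an unadjusted p under 0.05. DESeq2 called 3 genes, Stmn1, Tubb5 and Top2a, all among the 27.

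Of the 27 calls, 19 had over 25% of the UMIs of a group in 1 cell. The falls were Iglc1 (-4.58), an immunoglobulin gene with 95.6% of the Gestation UMIs in 1 cell, and Wap (-1.84), which encodes a milk protein made by the epithelium. The epithelium, milk and blood list summed to 15.6 and 7.32 per 10000 in Gestation and Lactation of library A and to 16.5 and 6.83 in library B. B and plasma cell genes went from 33.8 to 153 in library A and from 8.97 to 7.25 in library B. Most Igkc UMIs of Lactation A were in 1 cell, as given above, so the rise in library A is not read as a difference of stage. Myeloid genes went from 18.8 to 29.3 in library A and from 23.9 to 8.79 in library B. Their part in the calls was not tested.

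Receptors, granule genes, secreted factors and transcription factors of NK cells gave no call between the stages. Over the 10 lists of NK function, 0 of 91 genes tested passed in edgeR, with 6 at an unadjusted p under 0.05 and none in DESeq2. Gzma was at 90.4 and 83.6 per 10000 in Gestation and Lactation of library A and at 63.2 and 41.7 in library B. Prf1 was at 14.93 and 11.50, and at 9.71 and 8.93. Gzmb was at 6.63 and 9.44 in library A and at 5.42 and 2.65 in library B, so its direction differed between libraries. On simulated counts for this comparison, 47.0% of genes changed by a log2 of 1 and 95% of those changed by 2 were recovered. The changed genes all had a mean of at least 20 UMIs, and 7 unchanged genes were called. The simulation gave every gene the same spread and held no cell with most UMIs of a gene. Its recovery thus does not cover sparser genes or such cells.

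**Figure D5:**
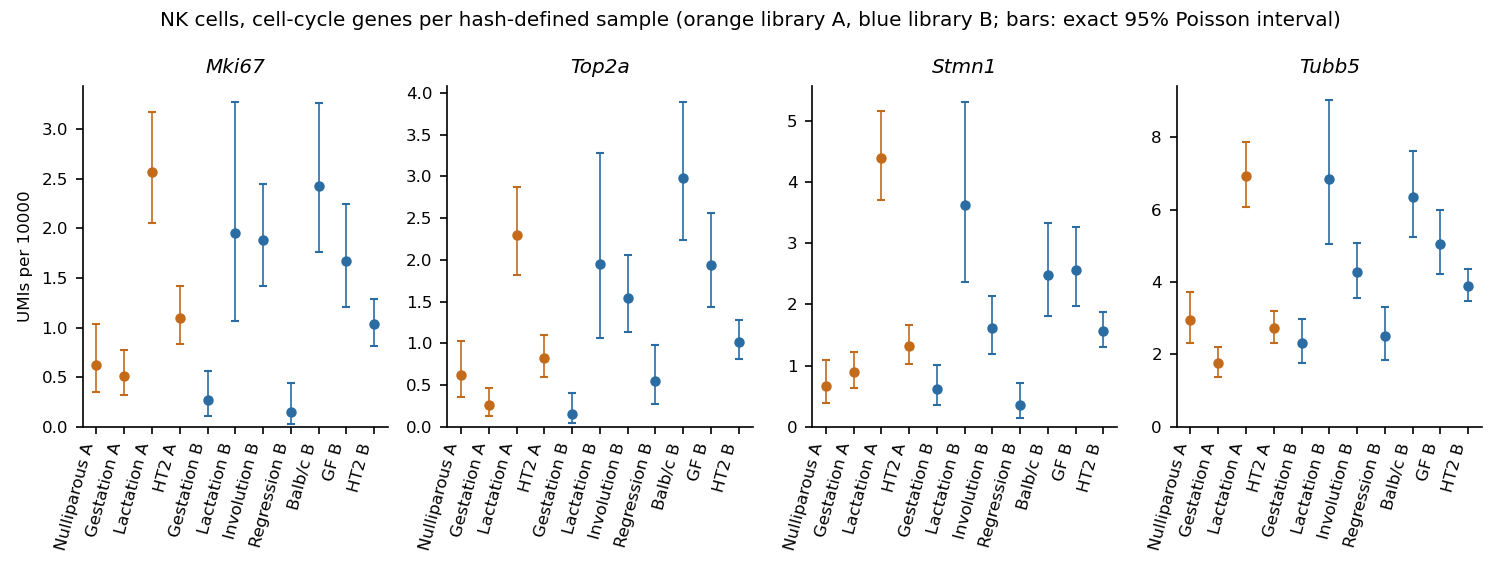
Levels of Mki67, Top2a, Stmn1 and Tubb5 in NK cells of each hash-defined sample, in UMIs per 10000 with Poisson 95% intervals. Lactation is above Gestation in each library, with Mki67 at 2.57 and 0.51 in library A, and Balb/c, at 2.43, is in the range of Lactation.

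Other samples had cell cycle levels near those of Lactation. Mki67 stood at 1.88 per 10000 in Involution, 1.67 in GF and 2.43 in Balb/c, and at 0.15 in Regression. By the share of NK cells with a Mki67 or Top2a UMI, Regression was not low, with 10 of 73 cells (13.7%), against 11 of 84 in Involution (13.1%) and 6 of 90 in Gestation B. In library A, Nulliparous had 0.63 and HT2 1.10.

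The HT2 NK cells stood at the top of their library for several genes. Klra9 was at 4.71 per 10000 in HT2 A, against 2.33 to 3.76 in the others, and at 4.48 in library B, against 0.33 to 3.75. The immediate early list summed to 27.2 per 10000 against 15.4 to 18.6 in library A, and to 42.4 against 27.2 to 41.5 in library B. Its members Dusp1 (2.88 and 4.41), Nr4a1 (1.01 and 2.81) and Ier2 (3.74 and 4.11) were highest in HT2 in both libraries. The granule and death ligand list summed to 133 per 10000 in HT2 A, within 117 to 142 in the others of library A, and to 111 in HT2 B, within 88.8 to 135. Its member Gzma was at 82.9 in HT2 A, within 72.7 to 90.4, and at 58.5 in HT2 B, within 41.7 to 80.8. Cma1 was at 4.54 per 10000 in HT2 A against 0.93 to 1.24 in the rest of library A, with 124 of its 248 UMIs in 1 cell.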

How the data were processed

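Transcripts and hash tags were counted in mammary CD45+ cells. The authors deposited raw counts: UMIs of each gene, and counts of each tag, in every barcode. Per the submitters' processing notes, the build was mm10 and the tool Cell Ranger 6.1.0, and per the file headers the gene count matrix of library A was written by Cell Ranger 4. No coordinates are given.

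The members and gene lists were chosen with earlier results of these data known. Cells needed 500 UMIs, 300 genes and a mitochondrial share of no more than 10%. HTODemux of Seurat 5.3.0 under R 4.3.3 called the tags in each library (quantile 0.99, tags of 100 counts or more). Cells with 1 tag were kept. Scrublet calls (scanpy 1.11.5, expected rate 0.08) were removed: they were 4.29% of the NK cells in library A and 3.64% in library B, against 7.86% and 6.87% of all cells. The libraries were matched by symbol over 55253 genes.

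Raw counts were summed per hash-defined sample and class, with at least 20 cells per sum. The test was edgeR (4.0.16) quasi-likelihood (TMM, filterByExpr, Benjamini-Hochberg over all genes tested, threshold 0.05), with the library as a block for Lactation minus Gestation and the hash-defined sample otherwise. The sample block pairs classes of the same sample by design. Lactation minus Gestation had 4 samples and 1 residual degree of freedom. SE is the log2 change over the square root of F. DESeq2 1.42.0 was an alternative, as were other scalings, filters, gates and left-out samples. Each fit was tested on simulated data. Levels have exact Poisson and shares exact binomial 95% intervals. Genes named by size were the 10 largest rises and falls that had the same sign in every sample, a mean of at least 20 UMIs and no cell with over 25% of a class's UMIs, without gate, mitochondrial and ribosomal genes. Listed genes could be named by role. Genes named only for how they stood in HT2 or Balb/c were chosen after their values were seen. One gene of the circulation and homing list is counted in the list but is not reported here by name.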

Additional observations from a re-analysis of the deposited data

Results flagged for a closer look

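In library B, cells with no called tag, which enter no comparison, held a larger share of NK cells than the tagged cells. NK cells were 9.36% of 2116 untagged cells without a doublet call (198 cells, exact 95% interval 8.15% to 10.7%), against 4.54% of 14612 cells with 1 tag. The median depth of all untagged cells was 2481 UMIs, against 2811 in all cells with 1 tag. In library A the order was the other way, with 4.53% of 2669 untagged and 7.06% of tagged cells.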

How the results depend on the processing

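Counts of called genes moved with the settings. Against 27 calls, Lactation minus Gestation gave 3 with DESeq2, 10 with upper-quartile scaling, 46 with no low-count filter, 3 with no replicate block (187 at an unadjusted p under 0.05), 3 with the top-tag rule, 41 with the gate without Klra8 and Klra4, and 0 without the top cell of each gene. Leaving out 1 sample, without the block since none of its residual degrees of freedom would remain, gave 15 to 48 calls, with 15 without Gestation A, 16 without Gestation B and 48 without Lactation B. Iglc1 (3.14) and Wap (0.46) turned without Gestation A (the lowest, without Lactation A, were -8.25 and -3.07), and Retnla turned (-1.01) under the top-tag rule. NK minus ILC1-gated genes gave 348 calls in place of 701 in library B alone, 562 with no replicate block, and 555 to 741 with 1 sample left out. Igkc turned to -0.077 with the gate without Klra8 and Klra4 and to -0.063 with a sum of at least 3. NK minus CD8-gated genes gave 2574 calls in place of 1564 with no filter, 843 in library A alone, 1471 with no replicate block, and 1394 to 1625 with 1 sample left out. For late minus early NK genes the count was 98 in place of 169 with DESeq2, 61 with no replicate block, 38 in library A and 51 in library B alone, 97 with a sum of at least 3, 85 without HT2, and 109 to 165 with 1 sample left out, the lowest without HT2 B. For the NK share per hash sample, the log2 ratio of Lactation to Gestation, -0.05, was 0.0025 without Klra8 and Klra4, 0.031 with a sum of at least 3 and 0.017 with doublet calls kept. Of the values of named genes under these alternatives, 1417 kept their call and direction and 67 lost the call against ILC1-gated cells. The counts were 2206 and 77 against CD8-gated cells, 599 and 84 in late cells, and 212 and 162 in Lactation. The 212 hold 27 values of library A alone and 27 of library B alone, which had no test and kept only their sign. The causes were not tested. Depth limits low genes most in library A, and Lactation B rests on 21 NK cells.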

Other observations

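Secreted factors of NK cells were spread unevenly over the samples of each library. Xcl1, which attracts dendritic cells, ran from 2.67 (Nulliparous) to 4.84 per 10000 (Gestation) in library A and from 5.10 (Regression) to 12.81 (GF) in library B. Ccl4 ran from 7.34 (Nulliparous) to 14.62 (HT2) in library A and from 11.50 (Gestation) to 24.86 (Balb/c) in library B, with 20.80 in GF. Gzmb was highest in Lactation in library A (9.44) and in GF in library B (8.31), and lowest in Nulliparous (5.80) and Lactation (2.65). Each of these names is 1 sample in its library, so no difference within a library was tested. Gestation and Lactation occur in both libraries, and their comparison given above called no gene of the secreted or granule lists.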
